A study of Mus musculus with 24 samples.

Results

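The palmitate response of mouse islet cells that carried a control antisense oligonucleotide was described here across all genes with enough counts. Its members were 12 of the 24 mRNA libraries of the series, taken by the labels for oligonucleotide and treatment. They comprised 6 libraries of Ctr BSA and 6 of Ctr PA, where Ctr is the control antisense oligonucleotide (ASO), PA is palmitate and BSA is bovine serum albumin. The cells were dispersed islet cells of wild-type mice, and the methods list C57BL/6NRj males and females aged 12 to 14 weeks. Cells of both groups were transfected with 50 pmol of the Ctr ASO and then cultured for 48 h, either in 0.5 mM PA on a BSA carrier (Ctr PA) or in 0.75% BSA (Ctr BSA). The remaining 12 libraries came from cells transfected with an ASO against a 5′tRNA-derived fragment (αGlu), with the same treatments. The labels place 3 libraries of each group in each of 2 batches, without saying what a batch is. A whole islet culture was sequenced, so each value averages over endocrine, immune, stromal and residual exocrine cells.

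Palmitate is the most common saturated fatty acid of the circulation. Islet cells take it up, activate it to palmitoyl-CoA and either oxidise it, elongate and desaturate it, or store it as triglyceride in lipid droplets. Fatty acids and their derivatives are ligands of the PPAR nuclear receptors, which switch on oxidation and storage genes. Long exposure of β-cells to palmitate is known to load the endoplasmic reticulum (ER), to start the unfolded protein response and the integrated stress response, and to impair insulin production. The islet also holds α-cells (glucagon), δ-cells (somatostatin), PP cells (pancreatic polypeptide), resident macrophages, endothelial cells and fibroblasts or stellate cells, which proliferate in dispersed culture.

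PA changed the level of a large share of the transcriptome. Of 15916 genes tested, 4772 passed an adjusted p of 0.05 (30% of those tested), with 2467 raised (15.5%) and 2305 lowered (14.5%). All adjusted p-values given here are Benjamini-Hochberg values of edgeR's quasi-likelihood F test, fitted with a batch term. Fold changes are those of Ctr PA over Ctr BSA, with their standard errors (SE) on the log2 scale, from 6 libraries a group. Both directions differed in size. The median log2 change was 0.32 among the raised genes and −0.47 among the lowered genes, against 0.01 over all genes tested. A change of more than 2-fold was seen in 106 of the raised genes, or 4.30%, and in 674 of the lowered genes, or 29.2%. Beyond 4-fold there were 12 raised and 208 lowered genes. At the study's own threshold, a change of more than 2-fold with an unadjusted p below 0.05, 941 genes were called (5.91%), of which 136 were raised (0.854%) and 805 lowered (5.06%). Without a filter on low counts, 1713 genes were called at this threshold. The study made its own calls with other software, and their number differs from the 941. The 6 PA libraries lay entirely above the 6 BSA libraries for 472 genes (2.97%) and entirely below them for 455 genes (2.86%), 927 genes in all (5.82%). Counts of raised and lowered genes in the lists below stand beside the 15.5% and 14.5% of all genes. Counts of list members without overlap stand beside the 2.97% and 2.86%.

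The share of genes called raised followed the level of a gene. The tested genes were put in 10 bins of equal number by their mean level over all libraries. In the bin of lowest level, 1.51% were raised and 13% lowered. In the bin of highest level, 28.9% were raised and 13.6% lowered. The share of lowered genes ran only from 13% to 16.8% over the bins, while the share of raised genes rose in every step from the lowest to the highest bin. The median log2 change was −0.31 in the lowest bin, −0.05 in bin 3, 0.01 in bin 4 and 0.07 in the highest bin. How far larger counts at high levels let small rises pass was not tested. Protein-coding genes made up 14576 of the genes tested, with 16.2% raised and 15.3% lowered. Among 505 lincRNAs, 10.1% were raised and 4.55% lowered, and among 448 antisense genes 6.70% were raised and 1.79% lowered.

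**Figure D1:**
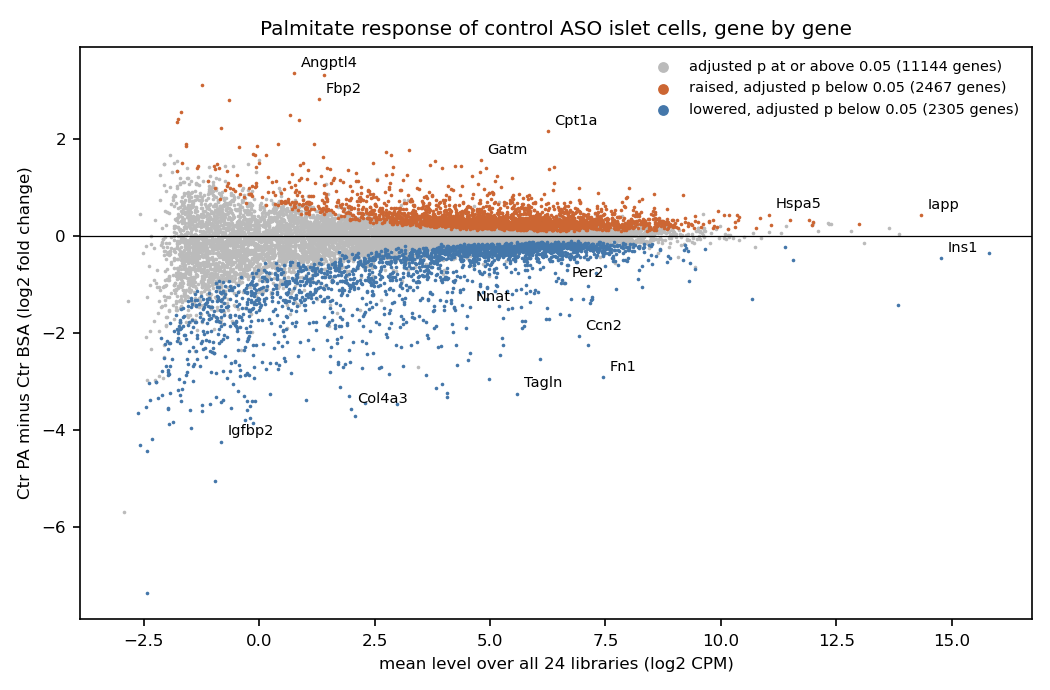
Each point is a gene, with the mean level over all 24 libraries on the x axis (log2 CPM, where CPM is the count scaled to a common library total) and the log2 fold change of Ctr PA over Ctr BSA on the y axis. The 2467 raised genes (orange) lie close to 0 and mostly at high levels, while the 2305 lowered genes (blue) reach further from 0, with Tagln, Fn1 and Col4a3 among them.

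Most genes called in either batch had the same direction in the other. With each batch fitted alone over the genes tested, 2031 genes passed in batch 1 (12.8%) and 1816 in batch 2 (11.4%). Of the 2031 genes that passed in batch 1, 1987 (97.8%) had the same sign in batch 2 and 969 also passed there, while 76.3% of all genes tested had the same sign in both. Both batches together gave more calls than either alone. A test of the difference between the responses of the batches, fitted on the 12 Ctr libraries, called 0 of 15216 genes with edgeR, with 414 at an unadjusted p below 0.05. DESeq2 called 4 genes, and a fit of all 24 libraries called 3. These were Fads2 and Scd2, desaturases of polyunsaturated and saturated fatty acids, and Pappa2, a protease of IGF-binding proteins, under both settings, with the laminin gene Lama2 under DESeq2 alone. The log2 change of Scd2 was −0.22 in batch 1 and 0.78 in batch 2, and that of Fads2 was −0.28 and 0.82. That of Pappa2 was 0.49 in batch 1 and −0.12 in batch 2, and that of Lama2 was −2.49 and −0.37. These 4 genes were picked after their values were seen.

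**Figure D2:**
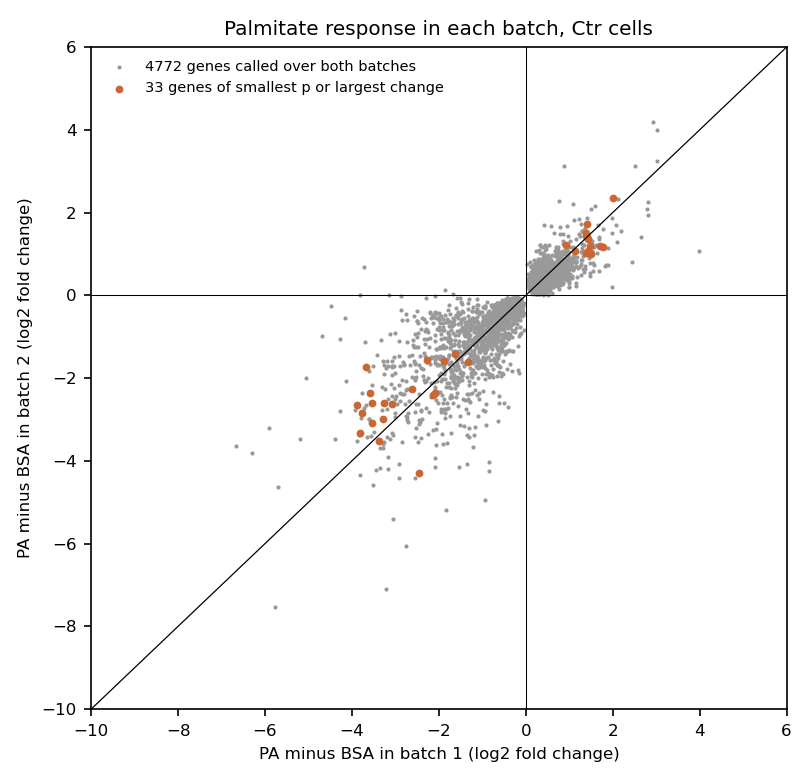
Each grey point is 1 of the 4772 called genes, with its log2 fold change of PA over BSA in batch 1 on the x axis and in batch 2 on the y axis, both in Ctr cells, and the diagonal marks equal changes. The 33 genes of smallest p or largest change (orange) lie to the lower left and upper right of the origin, so that each moved the same way in both batches.

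Library totals ran from 18214719 to 35001979 counts in Ctr BSA and from 24491448 to 29769223 in Ctr PA. A two-sided exact permutation test of the totals over the 6 and 6 libraries gave p = 0.578 (smallest possible p = 0.00216), and within batches 1 and 2 exact p = 0.9 and 0.4, where 0.1 is the smallest p that 3 against 3 allows. Library S1 of Ctr BSA stood apart, with 186849 CPM on the ribosomal RNA gene CT010467.1 against 7221 to 34374 CPM in the other Ctr BSA libraries and 5600 to 28158 CPM in Ctr PA. Library S23 of Ctr PA had high levels of the mitochondrially encoded proteins, given beside their changes. The labelled tissue fitted its markers: Ins1 and Ins2 together took 21.1% ± 3.3 of the authors' TPM (a length-scaled share of transcripts) in Ctr BSA and 17.1% ± 2.49 in Ctr PA (SD, n = 6 each). The summed level of 8 β-cell markers ran from 86400 to 133000 CPM in Ctr BSA and from 82930 to 129800 CPM in Ctr PA.

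Outside the genes of fatty-acid oxidation, the most significant of the genes raised more than 2-fold came from several pathways. Hpgds, the haematopoietic prostaglandin D synthase, ran from 31.0 to 70.2 CPM (median 55.3) in Ctr BSA and from 112 to 166 CPM (median 141) in Ctr PA. The groups did not overlap, and the log2 change was 1.44 (SE 0.10, adjusted p = 1.77e-10), and within batches 1 and 2 it was 1.70 and 1.18. Gatm, which makes the creatine precursor guanidinoacetate, ran from 12.3 to 20.1 CPM (median 18) with BSA and from 41.3 to 64.8 CPM (median 48.7) with PA. Each PA library thus held at least 41.3 CPM and each BSA library at most 20.1 CPM, and the log2 change was 1.57 (SE 0.12, adjusted p = 1.78e-09). Rassf2, a Ras-association scaffold of the Hippo kinases, rose from a median of 16.3 CPM (13 to 23.7) to 42.1 CPM (37.3 to 52.6), a log2 change of 1.33 (SE 0.07, adjusted p = 3.66e-12). Klf11, a zinc-finger transcription factor of the β-cell, rose from 16.2 CPM (14.2 to 28.5) to 39.9 CPM (33.1 to 44.3), a log2 change of 1.08 (SE 0.08, adjusted p = 1.78e-09). The PA and BSA libraries of both genes did not overlap. Pxmp4, a peroxisomal membrane protein, rose by 1.42 (SE 0.08) and Dcaf12l1, a WD-repeat protein encoded on the X chromosome, by 1.20 (SE 0.08). The smallest p-values of all belonged to Cpt1a, the carnitine palmitoyltransferase that commits fatty acids to mitochondria, with a log2 change of 2.18, and to Aldh9a1, an aldehyde dehydrogenase of carnitine synthesis, with one of 1.39.

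Of the 12 genes raised more than 4-fold, most were scarce without PA. Angptl4, a secreted inhibitor of lipoprotein lipase and a PPAR target, ran from 0.237 to 1.13 CPM (median 0.431) in Ctr BSA and from 2.58 to 11.7 CPM (median 5.58) in Ctr PA. The groups did not overlap, and the log2 change was 3.37 (SE 0.37, adjusted p = 3.77e-07). Fbp2, the muscle form of fructose bisphosphatase, ran from 0.530 to 1.32 CPM with BSA and from 4.64 to 8.54 CPM with PA, a log2 change of 2.83 (SE 0.25, adjusted p = 1.25e-08). Acot1, a cytosolic acyl-CoA thioesterase, changed by 2.50 (SE 0.33) and Ugt1a1, the bilirubin glucuronosyltransferase, by 2.40 (SE 0.35). Others were Cpt1a, Zdhhc22, Sh2d6, Trpc2, Ugt1a6b and the lincRNAs 2310081O03Rik and Gm33533, and apart from Cpt1a these had a median of at most 1.13 CPM with PA. Acot1, Fbp2, Zdhhc22, Sh2d6, Trpc2, Ugt1a6b, 2310081O03Rik and Gm33533 were picked after their values were seen.

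**Figure D3:**
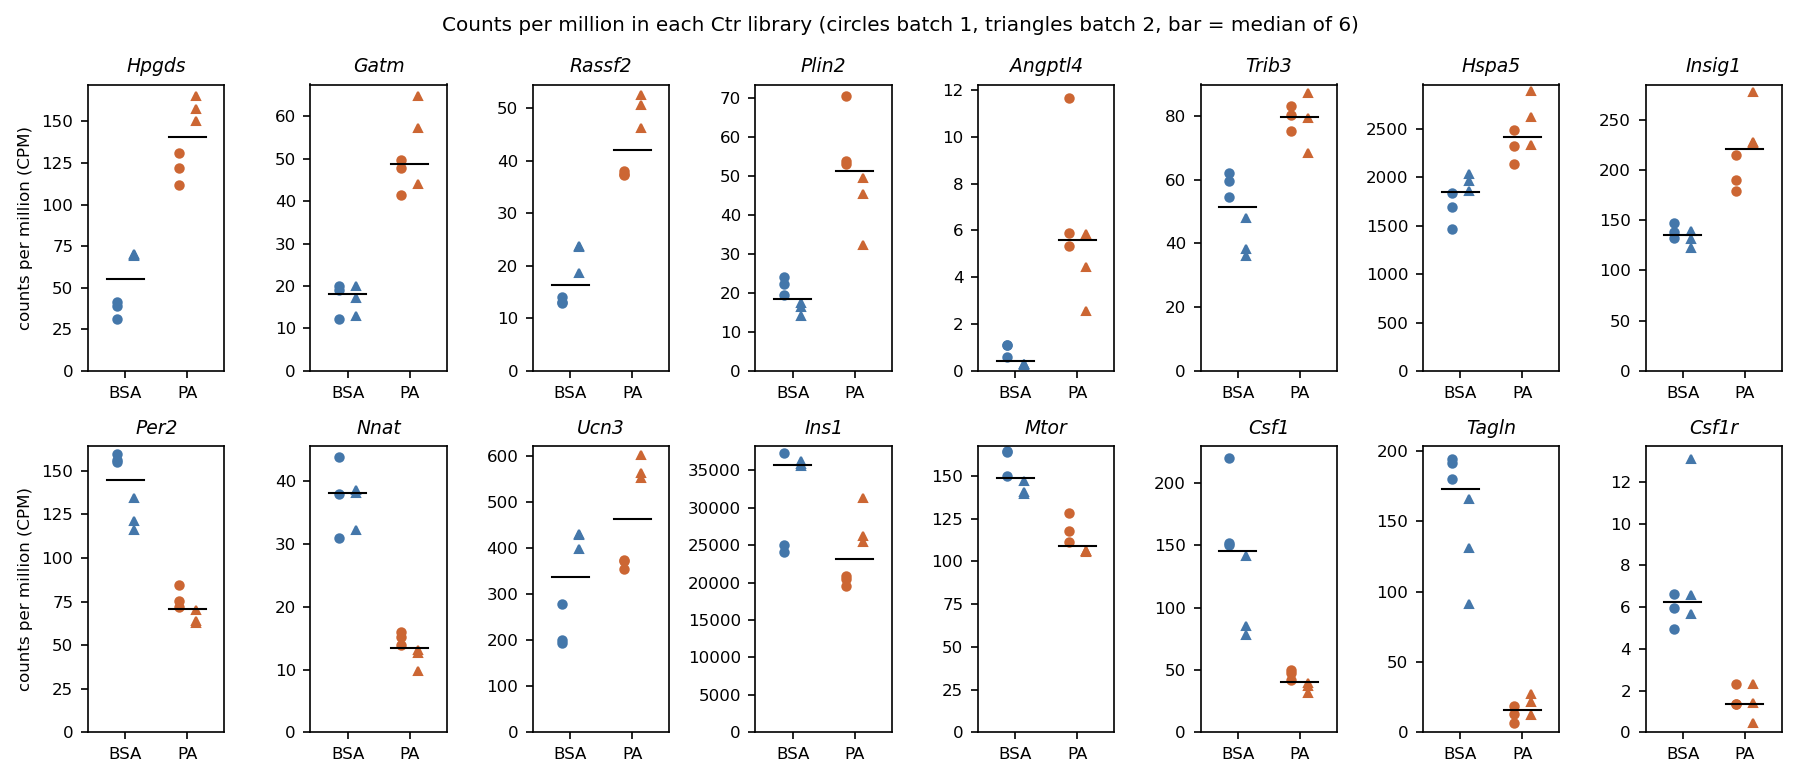
CPM (y axis, from 0) of 16 genes in each Ctr library, with BSA on the left and PA on the right of each panel, circles for batch 1, triangles for batch 2 and a bar at the median of 6 libraries. Hpgds, Gatm, Rassf2, Plin2, Angptl4, Trib3, Hspa5 and Insig1 lie wholly higher with PA, Per2, Nnat, Mtor, Csf1, Tagln and Csf1r wholly lower, and Ucn3 and Ins1 overlap.

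Genes that store and remodel lipids responded unevenly. Plin2, the coat protein of lipid droplets, ran from 14 to 24.1 CPM (median 18.4) in Ctr BSA and from 32.2 to 70.7 CPM (median 51.3) in Ctr PA. Each PA library exceeded each BSA library, with a log2 change of 1.42 (SE 0.13, adjusted p = 1.66e-08) and 1.41 in either batch. Of 30 tested genes of lipid droplets, lipolysis and triglyceride synthesis, 8 rose and 2 fell, with a median log2 change of −0.001, close to the 0.01 of all genes. Lpcat3, which puts polyunsaturated chains into membrane phospholipids, had a median of 62 CPM (47.5 to 68.5) with BSA and 115 CPM (85.6 to 146) with PA. Its log2 change was 0.96 (SE 0.06, adjusted p = 3.83e-11) without overlap of the groups, and it was picked after its values were seen. Pdk4, the kinase that closes the pyruvate dehydrogenase gate, rose by 1.26 (SE 0.15) from a median of 16.2 CPM to 35.8 CPM. Of 21 genes of pyruvate entry, 6 rose and 2 fell, the latter being Ldha and Ldhb, the subunits of lactate dehydrogenase, which changed by −1.19 and −0.38.

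Sterol synthesis genes rose. Of 35 tested genes of cholesterol synthesis and its regulation, 16 rose and 1 fell, with a median log2 change of 0.24. Among the 35 genes, 9 lay wholly higher with PA, as did 2.97% of all genes tested. The list's mean level in the 6 PA libraries also lay wholly above that in the 6 BSA libraries, and its median change was 0.12 in batch 1 and 0.42 in batch 2. Sqle, the squalene epoxidase, ran from 141 to 181 CPM (median 164) with BSA and from 203 to 285 CPM (median 225) with PA, a log2 change of 0.53 (SE 0.04, adjusted p = 3.88e-09). Dhcr7, the last enzyme of the pathway, changed by 0.59 (SE 0.07), and the cyclase Lss by 0.54. Insig1, the ER anchor that retains the sterol sensor SCAP, had medians of 135 CPM (123 to 147) and 221 CPM (179 to 277), a log2 change of 0.69 (SE 0.09), without overlap. It was picked after its values were seen. Of 28 genes of lipogenesis, desaturation and elongation, 11 rose and 2 fell (median 0.17). Elovl6, which elongates palmitate, had medians of 39.2 CPM (32.3 to 44.3) with BSA and 56.2 CPM (49.7 to 74.3) with PA, and changed by 0.56 (SE 0.07). Scd1, the main stearoyl-CoA desaturase, changed by 0.77 (SE 0.23, adjusted p = 0.0147), and within batches 1 and 2 it was 0.33 and 1.22, with overlap of the groups. It was also picked after its values were seen. Of 31 genes of ceramide and sphingolipid metabolism, 9 rose and 1 fell (median 0.06). The smallest p-values there belonged to Asah1, the acid ceramidase (0.60, SE 0.07), Degs2, a ceramide hydroxylase (0.84), and Sgpl1, the sphingosine phosphate lyase (0.36), while the ceramide synthase gene Cers1 fell by 2.08 (SE 0.41) from a median of 1.29 CPM to 0.281 CPM.

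Genes of the ER protein-folding machinery rose in number but by small amounts. Of 35 tested ER chaperones, ER-associated degradation genes and sensors of the unfolded protein response, 21 rose and 0 fell, with a median log2 change of 0.21. This share of 60.0% raised was read beside the 15.5% of all genes. Derl1, a membrane channel protein of ER-associated degradation, ran from 126 to 179 CPM (median 152) in Ctr BSA and from 194 to 258 CPM (median 223) in Ctr PA, a log2 change of 0.56 (SE 0.04, adjusted p = 3.60e-10). Hspa5, the chaperone BiP, ran from 1471 to 2030 CPM (median 1847) and from 2136 to 2889 CPM (median 2414), a log2 change of 0.45 (SE 0.07, adjusted p = 1.63e-05). Both genes lay wholly higher with PA. Ern1, the sensor IRE1α, changed by 0.49 (SE 0.06), with 0.64 in batch 1 and 0.35 in batch 2. The remaining raised members changed by 0.15 to 0.40.

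Some promoters of these ER genes hold a known sequence element. The list was written by hand from general knowledge of such genes, so its share of matches is not independent of how it was made. The ER stress element, bound by NF-Y and the ATF6 and XBP1 factors, is CCAAT followed after 9 bases by CCACG. It was sought on both strands in windows from 250 bases before to 50 bases after the RefSeq start of each gene (GRCm38.p6). It occurred in 9 of the 30 ER genes with a window (30%), against 37 of all 27025 genes with a window (0.137%). It was found in 8 of 1929 raised genes (0.415%), 1 of 1746 lowered genes (0.0573%) and 10 of 8412 tested genes that were not called (0.119%). The ER list supplied 7 of these 8 raised genes. Outside the ER list, 10 tested genes held the element, of which 1 rose and 1 fell (median log2 change 0.07). Of the 9 ER genes with a match, 7 rose and 0 fell (median log2 change 0.27), and of the 21 with a window but no match, 9 rose and 0 fell (median 0.14). A match is shown for each of the 9 genes, 7 of which rose, and is a description of the sequence. Capitals mark the stretch from CCAAT to CCACG, or its reverse complement, and each line runs 5′ to 3′ on the strand of the gene. The first 7 genes were raised and the last 2 (Derl3 and Syvn1) were not called.
Hspa5: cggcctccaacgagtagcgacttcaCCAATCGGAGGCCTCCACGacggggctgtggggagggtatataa
Dnajc3: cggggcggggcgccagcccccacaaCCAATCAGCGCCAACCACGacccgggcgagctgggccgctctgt
Hsp90b1: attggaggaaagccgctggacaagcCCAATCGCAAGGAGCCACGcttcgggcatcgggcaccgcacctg
Pdia6: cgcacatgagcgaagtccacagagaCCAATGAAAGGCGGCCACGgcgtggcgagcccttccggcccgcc
Creld2: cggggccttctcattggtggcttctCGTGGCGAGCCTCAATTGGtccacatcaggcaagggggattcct
Canx: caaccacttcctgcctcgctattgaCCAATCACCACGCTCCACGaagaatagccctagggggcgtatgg
Calr: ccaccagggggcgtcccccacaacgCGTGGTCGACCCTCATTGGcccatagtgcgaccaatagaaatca
Derl3: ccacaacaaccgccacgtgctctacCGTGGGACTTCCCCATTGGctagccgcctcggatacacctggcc
Syvn1: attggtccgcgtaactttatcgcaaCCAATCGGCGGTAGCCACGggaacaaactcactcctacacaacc
The positions are chr2:34772000-34772068 (+) for Hspa5, chr14:118937802-118937870 (+) for Dnajc3, chr10:86705613-86705681 (−) for Hsp90b1, chr12:17266466-17266534 (+) for Pdia6, chr15:88819495-88819563 (+) for Creld2, chr11:50325775-50325843 (−) for Canx, chr8:84847050-84847118 (−) for Calr, chr10:75893217-75893285 (+) for Derl3 and chr19:6046507-6046575 (+) for Syvn1, in GRCm38. The Hsp90b1 window holds a further match that is not shown.

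The promoters of the raised genes were also searched for the PPAR core motif AGGTCA in 2 copies 1 base apart (DR1), with at most 2 mismatches on either strand. It was found in 94 of 1929 raised genes (4.87%), 53 of 1746 lowered genes (3.04%), 300 of 8412 tested genes not called (3.57%) and 4.40% of all genes with a window. Among the 82 genes with a window that rose more than 2-fold, 8 held it (9.76%), with Aldh9a1, Slc25a20 (the carnitine carrier of mitochondria), Plin2 and Acox2 (a peroxisomal acyl-CoA oxidase) among them. The others were Dhrs9, Ednrb, A830019P07Rik and Gm3512. For genes lowered more than 2-fold, 18 of 464 with a window held it (3.88%). The stretches of Aldh9a1 (chr1:167349822-167349884, +) and Plin2 (chr4:86670247-86670309, −) are shown as the pair with the smallest p that holds the match before the start site, with the match in capitals.
Aldh9a1: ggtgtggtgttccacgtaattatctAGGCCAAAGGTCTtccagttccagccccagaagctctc
Plin2: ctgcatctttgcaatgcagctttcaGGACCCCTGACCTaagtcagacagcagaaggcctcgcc
The plain CCAAT box occurred in 44.1% of raised, 41.4% of lowered and 42.4% of uncalled genes, TGACGTCA in 3.42%, 2.00% and 3.76%, and TATAAA in 8.66%, 10.7% and 9.51%. The amino acid response element TGATGNAAT was in 0.726%, 0.630% and 0.535%.

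Targets of ATF4 and CHOP, the factors of the integrated stress response, rose as well. Of 40 tested targets, 22 rose and 2 fell (Ddit4 and Sesn2, inhibitors of mTORC1), with a median log2 change of 0.28. Trib3, a pseudokinase that restrains AKT, ran from 36.1 to 62 CPM (median 51.3) with BSA and from 68.4 to 87.3 CPM (median 79.8) with PA, a log2 change of 0.68 (SE 0.09, adjusted p = 7.46e-06), and within batches 1 and 2 it was 0.43 and 0.94. Cebpg, a partner of ATF4, ran from 79.1 to 98.3 CPM (median 89.1) and from 104 to 169 CPM (median 122), a log2 change of 0.50 (SE 0.06). Neither gene overlapped between the groups. Aldh1l2, the mitochondrial formyltetrahydrofolate dehydrogenase, changed by 0.58 (SE 0.05, adjusted p = 2.58e-09) with overlap. The largest change of the list was that of Stc2, a secreted stanniocalcin, at 0.86 (SE 0.25), followed by the cystine carrier Slc7a11 at 0.71 (SE 0.16), both with overlap and both picked after their values were seen. The response element TGATGNAAT was in the promoter windows of 5 of the 31 targets with a window (16.1%), namely Gars, Aars, Iars, Nupr1 and Fgf21, and none of these passed the test.

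Lysosomal genes rose and several regulators of autophagy fell. Of 43 tested genes, 21 rose and 6 fell, with a median log2 change of 0.17, and the list's mean level lay wholly higher in the PA libraries. Hexa, the α-subunit of hexosaminidase, ran from 85.7 to 129 CPM (median 122) with BSA and from 141 to 195 CPM (median 167) with PA, a log2 change of 0.57 (SE 0.07, adjusted p = 1.61e-06), and the calcium channel Mcoln1 changed by 0.45 (SE 0.06). Lamp2, a membrane protein of lysosomes picked after its values were seen, ran from 160 to 238 CPM and from 254 to 433 CPM. These 3 genes did not overlap between the groups. The lowered members were Tfeb, the master transcription factor of lysosome genes (−0.72, SE 0.19), Ulk1, the kinase that starts autophagy (−0.40), Rubcn (−0.24), Atg9a (−0.21), Atg12 (−0.19) and Atg16l1 (−0.18).

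Mitochondrial chaperones, respiratory chain and translation genes rose slightly. Of 78 tested nuclear-encoded subunits of the respiratory chain and ATP synthase, 22 rose and 0 fell (median log2 change 0.14), and of 78 mitochondrial ribosomal proteins, 22 rose and 0 fell (median 0.10). Mrps18b, a protein of the small mitochondrial ribosomal subunit, ran from 22.8 to 27.8 CPM with BSA and from 30.3 to 36.3 CPM with PA, a log2 change of 0.41 (SE 0.07, adjusted p = 9.65e-05). The mitochondrial chaperone Hspa9 ran from 333 to 444 CPM (median 344) and from 519 to 610 CPM (median 544), a log2 change of 0.57 (SE 0.07, adjusted p = 1.06e-06), without overlap. Of 26 heat-shock chaperones, 8 rose and 1 fell. Of the 13 proteins encoded by mitochondrial DNA, 4 rose and 0 fell (median 0.30), and for 13 of these 13 genes the highest of the 12 libraries was S23. The cytochrome c oxidase subunit mt-Co2 was at 7492 CPM in S23 and at no more than 4634 CPM in the other PA libraries, with 3162 to 5025 CPM in Ctr BSA. Without S23 its log2 change was 0.17 and it did not pass (adjusted p = 0.116). Of 80 cytosolic ribosomal proteins, 7 rose and 0 fell (8.75% raised, below the 15.5% of all genes), with a median of 0.13.

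Hormone and identity genes of the β-cell moved in both directions. Ins1 ran from 24127 to 37330 CPM (median 35633) in Ctr BSA and from 19479 to 31230 CPM (median 23125) in Ctr PA, and Ins2 from 48212 to 76315 CPM (median 68992) and from 41700 to 65714 CPM (median 49285). Both groups overlapped for both genes, and the log2 changes were −0.44 (SE 0.09, adjusted p = 5.80e-04) for Ins1 and −0.34 (SE 0.10, adjusted p = 0.00880) for Ins2. In such bulk samples, fewer cells of a type and less RNA per cell cannot be told apart, here and for the other cell types. Iapp, amylin, which is secreted with insulin, changed by 0.43 (SE 0.10, adjusted p = 0.00187), from a median of 20449 CPM to 24707 CPM. Ucn3, urocortin 3, a marker of mature β-cells that stimulates δ-cells, ran from 194 to 431 CPM (median 339) and from 355 to 602 CPM (median 464), a log2 change of 0.58 (SE 0.08, adjusted p = 5.15e-06). Its groups overlapped over the batches, with 0.70 in batch 1 and 0.45 in batch 2. Of 29 tested hormone and identity genes of β-cells, 5 rose and 8 fell, with a median of −0.08. These shares of 17.2% and 27.6% stood beside 15.5% raised and 14.5% lowered of all genes. Nnat, a small ER membrane protein that aids insulin signal-peptide processing, ran from 31.0 to 43.9 CPM (median 38.1) and from 9.73 to 15.9 CPM (median 13.5), a log2 change of −1.47 (SE 0.13, adjusted p = 2.08e-08). Npy, neuropeptide Y, ran from 20.9 to 39.4 CPM (median 32.3) and from 6.63 to 14.5 CPM (median 11.2), also −1.47 (SE 0.19). The PA libraries lay wholly below the BSA libraries for Nnat and Npy. Mafa, a transcription factor of the insulin gene picked after its values were seen, changed by −0.41 (SE 0.09), while Pdx1, another, was at −0.04 (SE 0.07, adjusted p = 0.687). In a fit without the batch term, Ins1, Ins2, Iapp, Ucn3 and Mafa did not pass, and Ins2 passed in neither batch alone.

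Genes of stimulus-secretion coupling were called in both directions. Of 30 genes of glucose sensing and stimulus-secretion coupling, 4 rose and 4 fell, a share of 13.3% in each direction beside 15.5% raised and 14.5% lowered of all genes, with a median of 0.0049. Cacna1a, the pore of the P/Q-type calcium channel, ran from 120 to 148 CPM (median 132) with BSA and from 83.8 to 110 CPM (median 104) with PA, a log2 change of −0.39 (SE 0.07) without overlap. Atp2a2, the calcium pump SERCA2 of the ER, changed by 0.39 (SE 0.06) and the cAMP sensor Rapgef4 by −0.24. Of the adenylyl cyclases, Adcy8 rose by 1.02 (SE 0.22) from a median of 1.10 to 2.28 CPM and Adcy5 fell by 0.88 (SE 0.23) from 2.23 to 1.33 CPM, a pair picked after the values were seen. Of 39 genes of prohormone processing, granules and exocytosis, 13 rose and 3 fell (median 0.12). Slc18a1, a vesicular monoamine carrier, ran from 10.4 to 21.6 CPM (median 15.2) and from 21.3 to 36.5 CPM (median 26.6), a log2 change of 0.84 (SE 0.08, adjusted p = 2.66e-08). Pam, which amidates peptide hormones, changed by 0.35. Of 21 genes that are normally silenced in β-cells or appear on dedifferentiation, 2 rose and 10 fell (median −0.47). The raised pair was Myc (0.46) and Aldh1a3, a retinaldehyde dehydrogenase seen in dedifferentiated β-cells, at 1.17 (SE 0.21, adjusted p = 1.79e-04), from a median of 7.09 to 15.9 CPM with overlap. The lowered ones include Pdgfra, Vim, Cxcl12 and Sox9, which fibroblasts or duct cells also express, and the part of those cells in the change was not tested.

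Hormones of the other endocrine cells differed among themselves. Gcg, glucagon, was at −0.16 to 0.23 in the batches and 0.05 over both (SE 0.15, adjusted p = 0.838). Sst, somatostatin, changed by −0.69 (SE 0.16), Ppy, pancreatic polypeptide, by −0.50 (SE 0.13) and Ghrl, ghrelin, by −1.89 (SE 0.49, from a median of 1.05 to 0.418 CPM), all of which passed the test. Gc, the vitamin D-binding protein of α-cells, ran from 62.1 to 100 CPM (median 92.3) with BSA and from 146 to 205 CPM (median 171) with PA, a log2 change of 0.99 (SE 0.12, adjusted p = 1.90e-06) without overlap. Of 22 tested non-β endocrine genes, 4 rose and 5 fell, shares of 18.2% and 22.7% beside 15.5% and 14.5% of all genes. Sst, Ppy and Ghrl were picked after their values were seen.

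Several core clock genes fell. Of 23 tested clock genes, 10 fell and 1 rose, a share of 43.5% lowered beside 14.5% of all genes, with a median log2 change of −0.29 that was −0.18 in batch 1 and −0.11 in batch 2. Per2, a repressor arm of the clock, ran from 116 to 159 CPM (median 145) in Ctr BSA and from 63.0 to 84.6 CPM (median 71.1) in Ctr PA. Each PA library lay below each BSA library, and the log2 change was −0.97 (SE 0.06, adjusted p = 1.57e-10), and within batches 1 and 2 it was −1.03 and −0.92. Per1 changed by −0.70 (SE 0.07) and Nr1d1, the heme receptor REV-ERBα, by −0.70 (SE 0.09), both with overlap. The output gene Dbp, picked after its values were seen, changed by −0.88 (SE 0.12). The member that rose was Rora, the activator of the same promoter elements, at 0.45. All libraries were harvested after the same culture time as far as the methods say, and the hour of the day is not given.

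Immediate early genes and insulin signalling genes also fell more often than they rose. Of 28 tested immediate early genes, 7 fell and 2 rose (median −0.19). Their shares, 25% lowered and 7.14% raised, stood beside 14.5% and 15.5% of all genes. Nr4a1, an orphan nuclear receptor induced by calcium and cAMP, ran from 18.9 to 35.9 CPM (median 28.0) with BSA and from 10.9 to 22.7 CPM (median 14.9) with PA, a log2 change of −0.84 (SE 0.12, adjusted p = 7.02e-06). Nr4a2 changed by −0.43 and the MAP kinase phosphatase Dusp4 by 0.58. Of 33 genes of insulin and IGF signalling, 10 fell and 3 rose, and the list's mean level was wholly lower with PA. Its median change was only −0.05 (−0.07 in batch 1 and −0.001 in batch 2), beside 0.01 over all genes. The part of stromal or immune cells in the lowered genes was not tested. Mtor, the growth kinase, ran from 139 to 164 CPM (median 149) and from 106 to 129 CPM (median 109), a log2 change of −0.42 (SE 0.06, adjusted p = 7.46e-06) and −0.43 in either batch. Igfbp7, an IGF-binding protein, ran from 102 to 155 CPM (median 116) and from 54.9 to 77.3 CPM (median 68.1), a log2 change of −0.86 (SE 0.08). Both lay wholly lower with PA. Igf1 changed by −2.12 (SE 0.37) from a median of 7.47 to 1.48 CPM. The receptor genes Insr (0.14) and Igf1r (0.04) did not pass, while Akt2 (0.23), Tsc1 (0.21) and Gsk3a (0.13) rose.

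The most significant lowered gene was Gm49394 (chr7:142650769-142669942, minus strand), a protein-coding annotation that lies over Igf2 on the same strand. It ran from 27.8 to 54.2 CPM (median 42.3) with BSA and from 4.26 to 15 CPM (median 7.29) with PA, a log2 change of −2.25 (SE 0.14, adjusted p = 2.63e-11). Igf2 itself, on the annotation it overlaps, was at −0.65 (SE 0.29, adjusted p = 0.0938), and how reads were split between both is not given. Akap5, an anchor of protein kinase A and calcineurin, ran from 6.96 to 19.4 CPM (median 11) and from 1.83 to 3.79 CPM (median 2.35), a log2 change of −2.21 (SE 0.20). Notch1, the receptor, had medians of 127 CPM (97.1 to 157) and 68.1 CPM (58.6 to 75.7), a log2 change of −0.90 (SE 0.08, adjusted p = 1.25e-08), and was picked after its values were seen. None of these 3 genes overlapped between the groups.

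Regulators of cell death, arrest and growth were split. Of 36 tested apoptosis regulators, 5 rose and 10 fell (median −0.10), shares of 13.9% and 27.8% beside 15.5% and 14.5% of all genes. Apaf1, the scaffold of the apoptosome, ran from 23.5 to 37.0 CPM (median 27.9) with BSA and from 14.4 to 26.3 CPM (median 20.8) with PA, a log2 change of −0.52 (SE 0.06), and the death receptors Tnfrsf10b and Fas changed by −0.88 (SE 0.12) and −0.88 (SE 0.24). The protective Bcl2l2 changed by 0.43 (SE 0.06). Hrk, a BH3-only activator of apoptosis in neurons, ran from 0.636 to 1.90 CPM and from 2.40 to 4.16 CPM, a log2 change of 1.51 (SE 0.23, adjusted p = 2.89e-05) without overlap, and Bid, another, changed by 0.72 (SE 0.12). Fas, Hrk and Bid were picked after their values were seen. Bcl2l1 was at 0.02 (SE 0.08) and Bcl2 at −0.29 (SE 0.20), and neither passed. Of 26 p53 targets and arrest genes, 4 rose and 9 fell, with Trp53 itself at −0.33 (SE 0.08) and Cdkn1a at −0.35 (SE 0.07), both picked after their values were seen. Of 43 proliferation genes, 4 rose and 2 fell. Ang, angiogenin, a ribonuclease that cleaves tRNAs, ran from 12.2 to 26.6 CPM (median 22.4) and from 30.8 to 39.3 CPM (median 36.2), a log2 change of 0.75 (SE 0.13, adjusted p = 1.46e-04). Rnase4, another ribonuclease that starts at the same locus and overlaps Ang on the same strand (chr14:51091077-51106151), had medians of 202 CPM (127 to 216) and 371 CPM (330 to 402), a log2 change of 1.00 (SE 0.09). Both lay wholly higher with PA, and reads of their shared exons cannot be assigned with certainty.

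Nuclear receptors and detoxifying enzymes held some of the larger rises. Of 32 nuclear receptors and coactivators, 7 rose and 6 fell (median −0.07), shares of 21.9% and 18.8% beside 15.5% and 14.5% of all genes. Pparg, the fatty-acid receptor, ran from 10.5 to 14.5 CPM (median 13.4) with BSA and from 17.6 to 22.2 CPM (median 20) with PA, a log2 change of 0.62 (SE 0.08, adjusted p = 4.09e-06), and its coactivator Ppargc1a, picked after its values were seen, had medians of 3.90 and 7.49 CPM and changed by 0.93 (SE 0.17). Both lay wholly higher with PA. Of 20 glucuronosyltransferases and drug-metabolising genes, 7 rose and 0 fell. Ugt1a9 ran from 4.34 to 11.3 CPM (median 8.80) and from 14.5 to 30.1 CPM (median 23.2), a log2 change of 1.47 (SE 0.17). It shares its last exons with Ugt1a1 and the other Ugt1a genes of the cluster on chromosome 1, so their separate values are uncertain. Of 36 antioxidant genes, 8 rose and 3 fell. Mt1, a metallothionein, changed by 0.79 (SE 0.14) and the ferritin chain Ftl1 by 0.44, while Txnip, a glucose-induced inhibitor of thioredoxin, changed by −0.52 (SE 0.08).

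**Figure D4:**
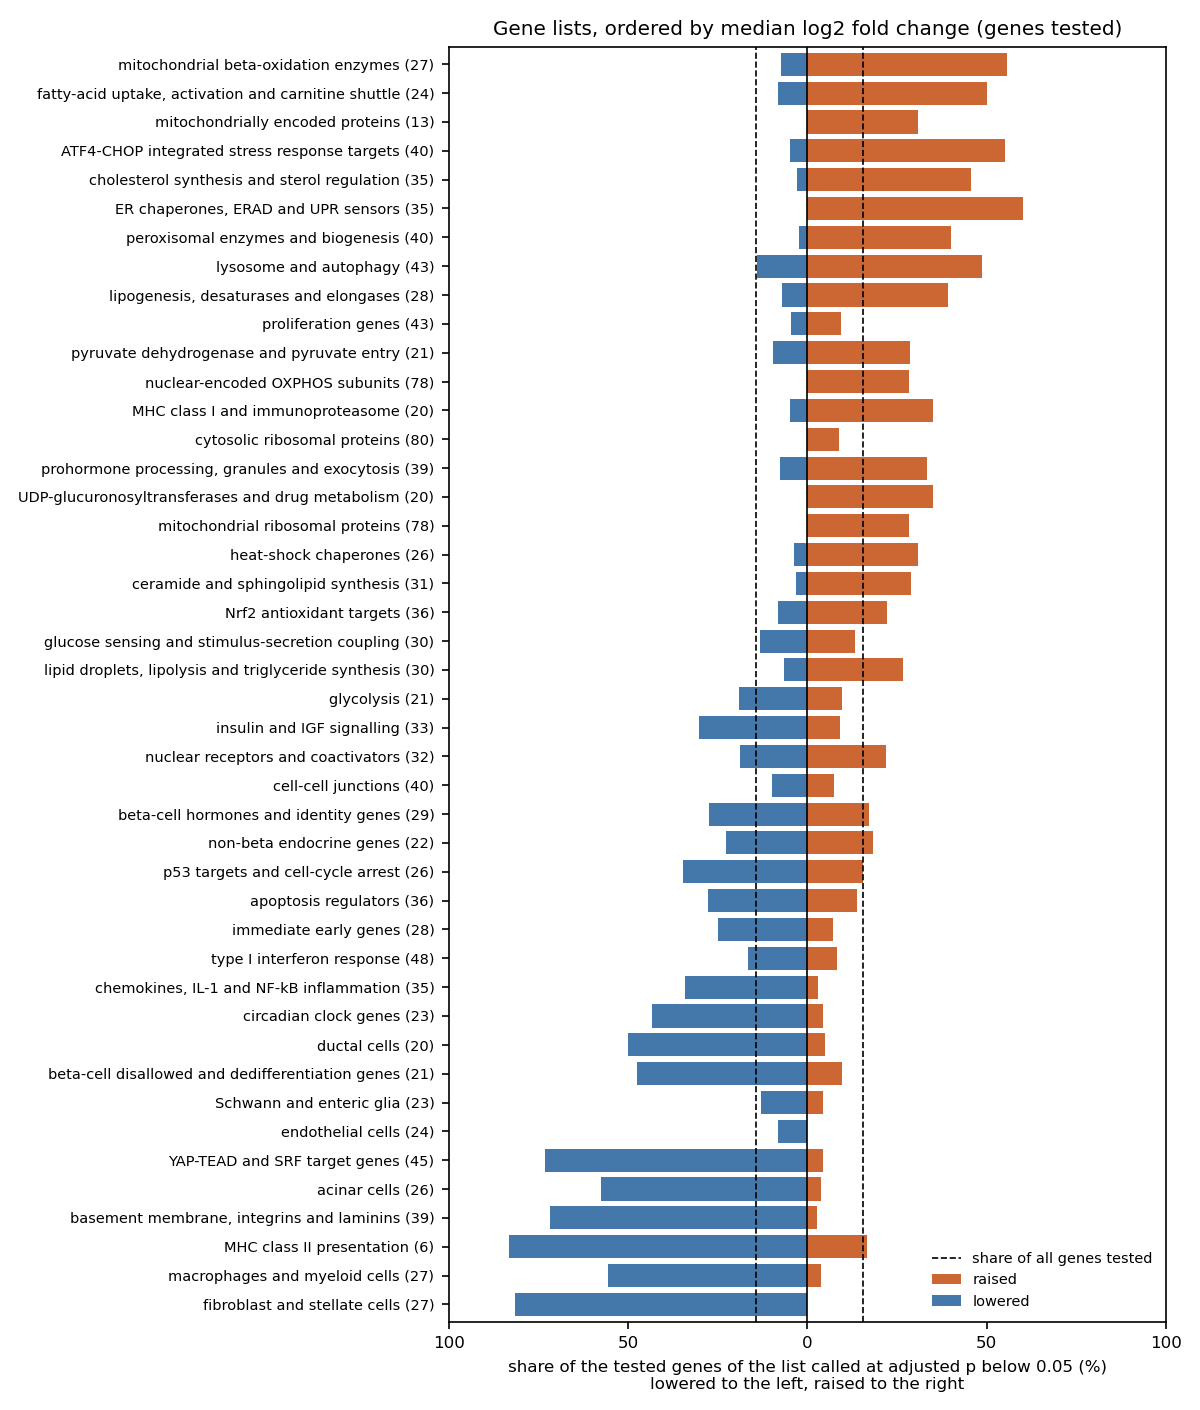
Share of the tested genes of each of 44 gene lists that passed an adjusted p of 0.05, raised to the right and lowered to the left (x axis, %), with lists ordered by their median log2 change and the number of genes tested in brackets. Dashed lines mark the shares over all genes tested (15.5% raised, 14.5% lowered). The lists of MHC class II presentation, fibroblasts, YAP-TEAD and SRF targets and basement membrane reach furthest to the left. The YAP-TEAD and SRF list was written after the values were seen, so its share is not independent of them. The MHC class II list has 6 tested genes, and its median of −1.86 was −0.69 without library S21.

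Matrix and contractile genes fell. Of 27 tested fibroblast and stellate genes, 22 fell and 0 rose (81.5% lowered, median log2 change −2.09). Among the 27 genes, 16 lay wholly lower with PA, as did 2.86% of all genes tested. Tagln, transgelin of smooth muscle and myofibroblasts, ran from 91.2 to 194 CPM (median 173) in Ctr BSA and from 6.62 to 27.1 CPM (median 15.9) in Ctr PA, a log2 change of −3.25 (SE 0.30, adjusted p = 3.63e-08), and within batches 1 and 2 it was −3.89 and −2.66. Fn1, fibronectin, ran from 346 to 712 CPM (median 493) and from 29.6 to 131 CPM (median 65.6), a log2 change of −2.91 (SE 0.37). Acta2, smooth muscle actin, had medians of 90.1 and 15.6 CPM and changed by −2.94 (SE 0.32), and Lox, the collagen crosslinker, had medians of 65.4 and 6.16 CPM and changed by −3.32 (SE 0.50). None of these 4 genes overlapped between the groups. The summed level of 7 fibroblast and stellate markers ran from 67.2 to 416 CPM with BSA and from 6.89 to 42.6 CPM with PA, a ratio of the means of 7.46. Of 39 basement membrane, integrin and laminin genes, 28 fell and 1 rose (median −1.05). Col4a3, a chain of collagen IV, ran from 8.44 to 24.4 CPM and from 0.644 to 1.93 CPM, a log2 change of −3.57 (SE 0.29, adjusted p = 5.68e-09). How much of these changes came with fewer or smaller stromal cells was not tested.

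Targets of YAP-TEAD and SRF, the factors that read the actin cytoskeleton, form a list written after the values were seen. Of 45 tested, 33 fell and 2 rose, with a median of −0.86. Ccn2, the connective tissue growth factor, ran from 182 to 390 CPM (median 277) with BSA and from 44.7 to 104 CPM (median 54.2) with PA, a log2 change of −2.07 (SE 0.21, adjusted p = 1.14e-07), and Tgfb1i1 changed by −1.51 (SE 0.15). Ankrd1, picked after its values were seen, had medians of 54.8 and 8.76 CPM. Of the cytoskeletal and membrane genes of smallest p, Tns1 (tensin) changed by −2.44, Ehd2 (a caveolar ATPase) by −1.73, Tgm2 (tissue transglutaminase) by −1.90 and Glipr1 by −3.44, each without overlap. Fibroblasts express these genes strongly, and the summed level of the stromal markers fell as well. Tagln is on both this list and the fibroblast list. The part of stromal cells in the change was not tested.

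Macrophage genes fell too, in part through library S21. Of 27 tested macrophage and myeloid genes, 15 fell and 1 rose (median −1.92), with a median of −1.04 in batch 1 and −2.16 in batch 2. Csf1r, the receptor of the macrophage growth factor, ran from 4.95 to 13.1 CPM (median 6.26) with BSA and from 0.465 to 2.33 CPM (median 1.38) with PA, a log2 change of −2.20 (SE 0.31, adjusted p = 8.05e-06). Its ligand Csf1 ran from 77.7 to 220 CPM (median 146) and from 31.2 to 49.7 CPM (median 40.8), a log2 change of −1.70 (SE 0.17, adjusted p = 9.51e-08). Both lay wholly lower with PA. Lyz2, lysozyme, was at 177 CPM in S21 and at 8.80 to 44 CPM in the other BSA libraries, against 1.90 to 7.46 CPM with PA. Its log2 change was −3.46 (SE 0.73), and −2.69 without S21 (adjusted p = 0.00384). Without S21 the median of the list was −1.13. Apoe changed by −2.10 (SE 0.33) and Fcgr3 by −2.78. Mrc1, the mannose receptor, changed by −2.31 (SE 0.87, adjusted p = 0.0475; without S21 −1.21 and 0.268), Arg1 by −0.23 (adjusted p = 0.0397), while Il1b (−0.15) and Tnf (−0.22) did not pass. The summed level of 9 macrophage markers ran from 78.5 to 370 CPM and from 84.4 to 128 CPM, so that the groups overlapped, although 7 of the 9 markers fell. The lysosomal marker Cd68, which did not pass, was at −0.20 (adjusted p = 0.528). Of 6 tested genes of MHC class II presentation, 5 fell and 1 rose, with low medians in Ctr BSA for H2-Aa (0.326 CPM) and H2-DMb1 (0.468 CPM). The median of this list, −1.86, was −0.69 without S21. H2-Aa, at 9.23 CPM in S21, changed by −2.86 (adjusted p = 0.0190), and was at −0.70 without S21 (adjusted p = 0.483).

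Inflammatory and antigen-presentation genes on the remaining lists differed by list. The bulk libraries do not show which cells these transcripts came from. Of 35 tested chemokine, IL-1 and NF-κB genes, 12 fell and 1 rose (median −0.25), shares of 34.3% and 2.86% beside 14.5% and 15.5% of all genes. Icam1, the leukocyte adhesion molecule, ran from 12.4 to 25.4 CPM (median 18.3) with BSA and from 1.43 to 4.86 CPM (median 4.26) with PA, a log2 change of −2.28 (SE 0.25, adjusted p = 3.17e-07) without overlap. Nfkb1 changed by −0.26 (SE 0.05). Of 48 interferon-response genes, 4 rose and 8 fell (median −0.19), shares of 8.33% and 16.7% beside 15.5% and 14.5% of all genes. Irf1 changed by −0.39 (SE 0.08) and the receptor chain Ifnar1 by −0.27 (SE 0.05), both without overlap, while Trim25 changed by 0.27. Of 20 MHC class I genes, 7 rose and 1, the peptide transporter Tap1, fell (−0.30, SE 0.11). Calr, among those that rose, is counted on the ER list as well.

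Acinar transcripts differed more between the batches than between the treatments. The summed level of 6 acinar markers ran from 5028 to 16224 CPM in the BSA libraries of batch 1 and from 350 to 464 CPM in those of batch 2, and from 2432 to 6540 CPM and 181 to 451 CPM with PA. Of 26 acinar genes, 15 fell and 1 rose (median −0.91), with −1.25 in batch 1 and −0.46 in batch 2. Cel, the bile salt lipase, ran from 18.1 to 1493 CPM with BSA and from 9.24 to 286 CPM with PA and changed by −1.49 (SE 0.33, adjusted p = 0.00155). Of 20 ductal genes, 10 fell and 1 rose (median −0.39), with Bicc1 at −0.78 (SE 0.10). Of 24 endothelial genes, 2 fell (Flt4 and Eng) and 0 rose, with a median of −0.59. Of 23 glial genes, 3 fell and 1 rose (median −0.56), with a median of −1.24 in batch 1 and 0.09 in batch 2.

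**Figure D5:**
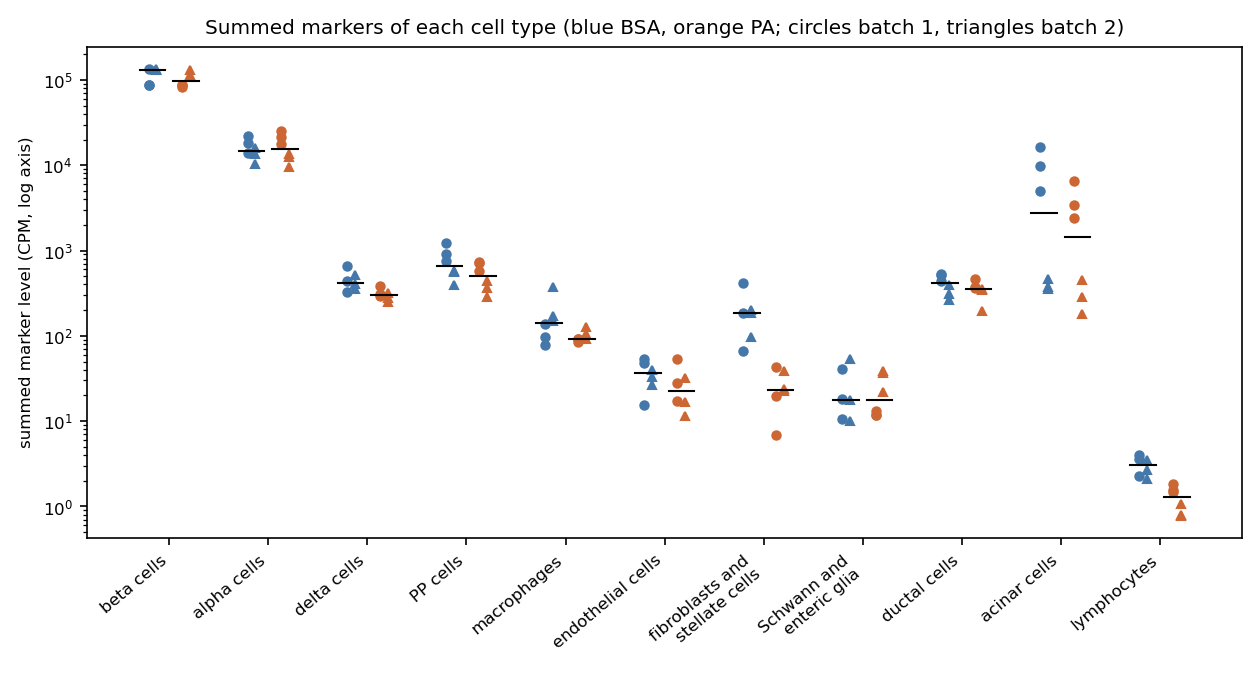
Summed level of the markers of 11 cell types in each Ctr library (y axis, CPM on a log axis), with BSA in blue, PA in orange, circles for batch 1, triangles for batch 2 and bars at the medians of 6. The fibroblast and stellate sum lies wholly lower with PA (6.89 to 42.6 against 67.2 to 416 CPM), while the sums of β-, α- and ductal cells overlap between treatments.

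Structural RNAs were called lowered, and 3 of the 4 given here lost the call without library S1. CT010467.1 changed by −1.41 (adjusted p = 0.0207) and by −0.43 without S1 (adjusted p = 0.231). Rn7s1, a gene of the signal recognition particle RNA, was at 1027 CPM in S1 against a median of 50.8 CPM in the 6 BSA libraries, and changed by −2.11 with S1 and by −0.44 without it (adjusted p = 0.464). mt-Rnr2, the large mitochondrial ribosomal RNA, changed by −0.92 with S1 and by −0.24 without it (adjusted p = 0.117). Rn7sk, the RNA of the transcription elongation inhibitor complex, kept its call without S1, at −0.82 with and −0.60 without it (adjusted p = 0.025). Poly(A)-selected libraries are not designed to measure these RNAs, and these genes were picked after their values were seen.

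The same treatment was given to cells with the αGlu ASO, and these share no library with the Ctr comparison. The comparisons are still not independent. Both came from the same fit with a shared spread and batch term. The methods also take the groups of a replicate from the same animal. There, PA against BSA called 4543 genes (28.5%), of which 3364 were also called in Ctr with the same sign, or 70.5% of the Ctr calls and 74.0% of the αGlu calls. Of the 4772 genes called in Ctr, 4735 had the same sign in αGlu cells. A test of the difference between both responses called 0 of 15916 genes with edgeR and 0 with DESeq2, with 332 and 340 at an unadjusted p below 0.05. The log2 change of Hpgds was 1.44 in Ctr and 1.32 in αGlu cells, that of Per2 −0.97 and −0.90, that of Nnat −1.47 and −1.18, that of Ucn3 0.58 and 0.59, and that of Tagln −3.25 and −3.14. That of Lyz2 was −3.46 in Ctr and −1.17 in αGlu cells, a difference of −2.28 with an unadjusted p of 0.0277 in the interaction term of edgeR, which did not pass adjustment. The Ctr value of Lyz2 rested in part on library S21, and was −2.69 without that library.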

How the data were processed

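mRNA of the islet cells was sequenced after poly(A) selection (stranded kit). The authors deposited gene counts and TPM in 1 table for 24 libraries, made with a QIAGEN analysis portal (version 5.1), and per the labels the build is GRCm38. Aligner and annotation release: not given in the sources used here. In all, the table holds 41549 genes, and its 1 line without a gene holds 0 counts. Groups came from the titles and batches from the labels.

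Counts were fitted with edgeR 4.0.16 in R 4.3.3 (TMM, filterByExpr with a minimum count of 10, quasi-likelihood F test, coefficients of group and batch, all 24 libraries sharing the spread). The tested genes held 99.95% of counts. The deposited TPM served only for shares of insulin. CPM values are counts scaled to a common TMM-adjusted library total. The study describes the 6 libraries of a group as independent experiments, which the labels do not state. The fit was tested on simulated data. Alternatives were DESeq2 1.42.0, other scalings and filters, no batch term, the Ctr libraries alone, each batch alone, a block of consecutive libraries, and leaving out each library.

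The members and the gene lists were chosen with earlier results of these data known. Genes were named by rule: the 10 raised and 10 lowered genes of smallest p past 2-fold of equal sign in the batches and averaging 10 counts or more, the 10 raised and 10 lowered of largest change with a mean of at least 20 CPM, up to 3 genes of smallest p of each list, and hormone, marker and regulator genes given by name. Other genes named were chosen after their values were seen, and some that the rule names are not reported here. Promoter windows came from RefSeq (GRCm38.p6), and 12087 of the 15916 tested genes had one.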

Additional observations from a re-analysis of the deposited data

Results flagged for a closer look

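In 15 of 352 sets of 6 libraries (176 genes named in the text, in Ctr BSA and Ctr PA), or 4.26%, the highest or lowest library stood apart by a gap, relative to the group's range on the log2 scale, above Dixon's critical value for 6 samples, where chance gives about 1 in 20. Of these, 8 fell in library S23 of Ctr PA. It was highest for Canx (818 CPM, others at most 680.0), Lamp2 (433 CPM, others at most 306), Rora (139 CPM, others at most 108), Gm33533 (1.72 CPM, others at most 0.401) and mt-Co2 (7490.0 CPM, others at most 4630.0). It was lowest for Csf1r (0.465 CPM, others at least 1.35), Icam1 (1.43 CPM, others at least 3.67) and Flt4 (0 counts, others at least 0.873 CPM). Library S21 of Ctr BSA was highest for Csf1r (13.1 CPM, others at most 6.64) and H2-Aa (9.23 CPM, others at most 0.709). Library S1 of Ctr BSA was highest for Rn7s1 (1030.0 CPM, others at most 84.3) and mt-Rnr2 (3830.0 CPM, others at most 966). Library S7 of Ctr PA was lowest for Cacna1a (83.8 CPM, others at least 99.4) and Rubcn (63.3 CPM, others at least 69.2), and library S9 of Ctr BSA for Gc (62.1 CPM, others at least 84.6). What set these libraries apart was not tested.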

How the results depend on the processing

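The methods take the groups of each replicate of islet cells from 1 animal, but the labels pair no libraries and the groups share no replicate number. Sets of 4 consecutive library numbers hold 1 library of each group, and with these sets as a replicate block, a choice made after the data were seen, 5617 genes were called and 975 at 2-fold, while CT010467.1, Mrc1 and Rn7s1 lost the call. The deviations of the Ctr BSA and Ctr PA library of a set from their group means in the batch correlated at 0.0307 to 0.261 over genes, above 0.1 in 3 of the 6 sets, and 9 of the 12 Ctr libraries correlated best within their set. The count of genes called, 4772, was 3281 (756 at 2-fold) in the Ctr libraries alone, 2312 without the batch term, 2033 in batch 1 alone and 1833 in batch 2 alone. It ran from 4201 (without S3) to 4902 (without S23) when 1 library was left out, and was 4013 without S9 and S21, a choice made after the data were seen. The 2-fold count of 941 was 1713 without a filter on low counts, and ran from 891 (without S21) to 1027 (without S7). The difference between batches was called for 0 genes, for 4 with DESeq2 and for 3 with all 24 libraries. Of 1012 list medians under an alternative, 1002 moved by less than the spread between libraries. MHC class II presentation moved from −1.86 to −0.877 with the stricter filter, −0.826 in the Ctr libraries alone, −0.936 in batch 1, −2.03 to −0.69 without single libraries (−0.69 without S21) and −0.793 without S9 and S21. The macrophage median was −1.10 in batch 1 and −2.07 to −1.13 without single libraries (−1.13 without S21), the lysosomal one 0.210 in batch 1, that of basement membrane −0.728 in batch 2 and that of cholesterol synthesis 0.415 in batch 2. Of the 156 called genes named in the text, none changed sign under the alternatives run, and 17 lost the call without some library: Arg1, Atg12, CT010467.1, Ddit4, Gsk3a, H2-Aa, Lama2, Mrc1, Myc, Pdgfra, Rn7s1, Sesn2, Tap1, Trpc2, Ugt1a6b, mt-Co2 and mt-Rnr2. Signs turned for genes that were not called. In batch 1 alone these were Bcl2l1 (−0.0532), Cd68 (0.179), Fads2 (−0.277), Igf1r (−0.0362), Nupr1 (−0.105), Pdx1 (0.0774) and Scd2 (−0.215), and in batch 2 alone Gcg (−0.164), Iars (0.0607) and Pappa2 (−0.121). Iars was 0.00581 without a filter and 0.00301 with the block. When single libraries were left out, the values ran from −0.0379 to 0.0544 for Bcl2l1, −0.282 to 0.0882 for Cd68, −0.0446 to 0.134 for Gcg, −0.0436 to 0.0425 for Iars, −0.00566 to 0.0669 for Igf1r and −0.486 to 0.0138 for Tnf. Without S9 and S21, Bcl2l1 was −0.00593, Cd68 0.0362 and Iars 0.0104. The cause of these shifts was not tested.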
